A study of Saccharomyces cerevisiae with 8 samples.

Results

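The 299 chromatin sites of Gcr1(U) are described here at 12 h and at 6 h of culture. Gcr1(U) is the form of the yeast transcription factor Gcr1 that is encoded by the unspliced GCR1 transcript. The members are the peaks of the 2 Gcr1(U) lists, each peak at 12 h being paired with the 6 h peak that it overlaps by at least 1 bp on the same chromosome. All 299 peaks of either list found 1 partner, and they make up 299 pairs, or 598 of the 1064 entries of the 4 peak lists of the series. The measure throughout is chromatin immunoprecipitation followed by sequencing (ChIP-seq), which counts DNA fragments that were crosslinked to a tagged protein.

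The cells were Saccharomyces cerevisiae of the haploid laboratory background BY4741, strain JHY9311, genotype GCR1U-TAP::his3MX6 GCR2-5Flag::hphMX6. Both times used this 1 strain, so the tag on Gcr1, the Flag tag on its partner Gcr2 and the selection markers were present in all Gcr1(U) samples. The 12 h group (2 samples) is described in the labels as after the diauxic shift, the switch from glucose fermentation to respiration of ethanol. The 6 h group (2 samples) is described as exponential phase. Cultures started from OD600 0.5 and were grown at 30 °C in YPD, a rich medium, with glucose at 2%. Growth phase was taken from the labels and was not measured here, and no library from input DNA or an untagged strain was analysed here.

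Gcr1 works together with Gcr2 and with the DNA-binding protein Rap1 to drive high transcription of the glycolytic genes, and it recognises the short CT box motif in their promoters. Cells without it grow poorly on glucose. The GCR1 gene contains an intron, and both the spliced and the unspliced transcript can be translated. During growth on glucose yeast carries out glycolysis and ethanol fermentation, and after glucose runs out it turns to the ethanol it has made.

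Each list pools its 2 samples, so no value below has an error between replicates, no test between the times was possible and no p-value is given for them. Ranges in brackets after a ratio are 95% exact binomial intervals that cover counting error only. Values are normalized tag counts, which are sequenced fragments in the peak window scaled to library size. The deposited values lie on even steps, and with each step taken as 0.5 tags a normalized tag stood for 1.42 tags at 12 h and 1.5 tags at 6 h. That step is an assumption, since the scale is not named. If it stands for more tags, for example because the lists average both samples, the intervals would be narrower and more of them would lie off 1. The lowest listed peak had 69.8 normalized tags at 12 h against 69.6 at 6 h, and the usual window spanned 168 bp at 12 h and 182 bp at 6 h. Peaks carry a number within their chromosome that follows the findPeaks score in 282 of 282 neighbouring comparisons at each time. The highest such numbers add up to 14206 at 12 h and 12916 at 6 h, so the deposited peaks are a selection from longer calls. Of the first 10 numbers on each of the 16 nuclear chromosomes, the lists hold 69 of 160 at 12 h and 60 of 160 at 6 h. The lowest fold over local background was 2.01 at 12 h and 2.00 at 6 h. Coordinates are those of sacCer3.

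Over all 299 pairs the tag counts differed little at the median, with a log2 ratio of 0.04 (12 h over 6 h, quartiles -0.23 and 0.30), but classes of sites moved apart. The glycolytic promoters and the mitochondrial genome had fewer tags at 12 h, the tRNA genes had more, and the chromosome ends and remaining nuclear sites stayed near a ratio of 1. Of all pairs, 8 were at least 1.5-fold higher at 12 h (2.68% of the 299) and 36 at least 1.5-fold lower (12.0%). Of those 36 lower pairs, 25 lay in the mitochondrial genome, 5 at glycolytic promoters and 6 at other nuclear sites. Of the 8 higher pairs, 4 were at tRNA genes and 4 at other nuclear sites, namely upstream of GPD2 and inside ENO2, RPL8A and SSB1. The ratio was above 1 at 160 pairs (53.5%) and below 1 at 139 (46.5%). A counting interval above 1 was found at 99 pairs (33.1%) and one below 1 at 65 (21.7%). The tRNA genes held 42.7% of all tags in the listed peaks at 12 h against 29.8% at 6 h. The glycolytic promoters held 5.80% at 12 h against 9.92% at 6 h, and the mitochondrial genome 6.49% against 14.6%.

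**Figure D1:**
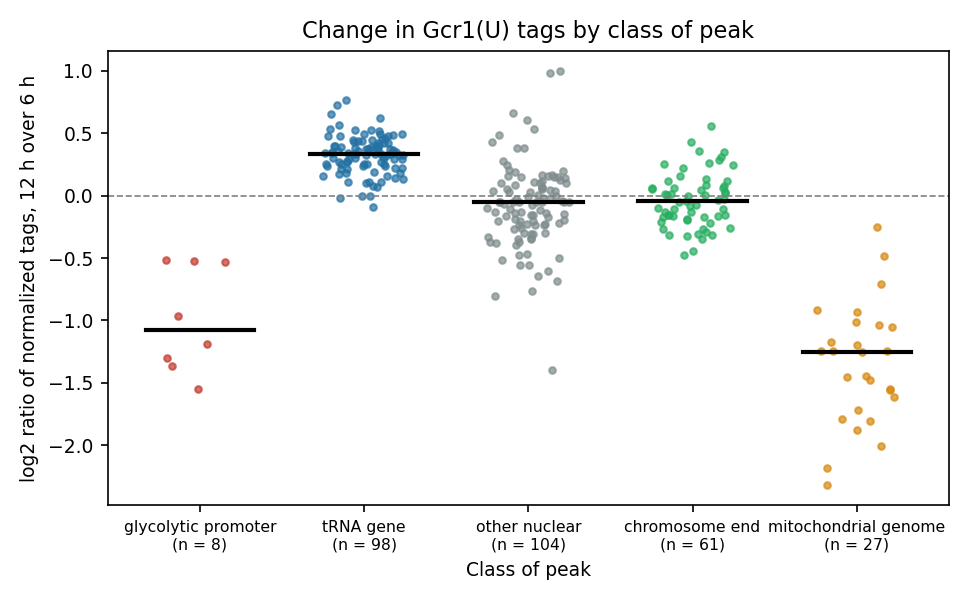
The log2 ratio of normalized tags (12 h over 6 h) is plotted for every Gcr1(U) pair by class of site, with 1 point per pair and a black bar at the class median. The glycolytic median is -1.08, the tRNA median 0.33 and the mitochondrial median -1.26, while other nuclear sites and chromosome ends centre near 0. The single rDNA pair is left out.

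At the glycolytic promoters all 8 Gcr1(U) peaks were lower in tags at 12 h, and 5 of 8 were at least 1.5-fold lower. These peaks lie upstream of 8 of the 17 genes of the glycolysis list. By the same rule 207 of the 6002 nuclear protein-coding genes had a peak in the promoter range. The 8 peaks split into a group of 5 that were lower by a large margin and a group of 3 that were lower by a small one. FBA1, the aldolase gene, had 484 tags at 12 h against 1417 at 6 h, a ratio of 0.341 (0.313 to 0.372). PFK2, which encodes the beta subunit of phosphofructokinase, had 718 tags at 12 h against 1854 at 6 h (ratio 0.387, 0.360 to 0.416). ENO2, an enolase gene, had 478 tags at 12 h against 1178 at 6 h at its promoter (ratio 0.406, 0.370 to 0.443). These are the lowest ratios among the 8.

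TDH3, the main gene for glyceraldehyde-3-phosphate dehydrogenase, had 413 tags at 12 h against 942 at 6 h (ratio 0.439, 0.398 to 0.483). PGI1, phosphoglucose isomerase, had 857 tags at 12 h against 1674 at 6 h (ratio 0.512, 0.477 to 0.548). The remaining promoters kept a larger share of their tags. PGK1, phosphoglycerate kinase, had 439 tags at 12 h against 634 at 6 h (ratio 0.692, 0.624 to 0.766). GPM1, phosphoglycerate mutase, had 888 tags at 12 h against 1274 at 6 h (ratio 0.697, 0.649 to 0.749). CDC19, pyruvate kinase, had 1233 tags at 12 h against 1760.0 at 6 h (ratio 0.701, 0.659 to 0.744). The intervals of PGK1, GPM1 and CDC19 overlap one another and lie above those of the other 5 promoters.

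Most glycolytic peaks, 6 of 8, also stood further down the ranking of the 299 by tags at 12 h. At 12 h they stood between rank 6 and rank 75, and at 6 h between rank 4 and rank 29. TDH3 stood at rank 75 at 12 h and at 19 at 6 h, ENO2 at 39 and 12, FBA1 at 38 and 9. CDC19 stood at rank 6 at 12 h and 7 at 6 h, and GPM1 at rank 9 at 12 h and 10 at 6 h, so those promoters held their places with fewer tags. Of the 299 pairs 61.9% moved nearer the top and 36.8% further from it, and 2 of the 8 glycolytic peaks moved nearer the top. Among the 30 highest peaks there were 4 glycolytic promoters at 12 h and all 8 at 6 h.

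Enrichment over the surrounding DNA was lower at 12 h at all 8 glycolytic promoters, against 23.7% of all pairs. This fold over local background is the peak caller's own value and compares a peak with the region around it. It was 2.39 at 12 h and 5.43 at 6 h at FBA1, 2.09 at 12 h and 4.33 at 6 h at TDH3, and 5.78 at 12 h and 6.91 at 6 h at CDC19. At PFK2 it was 4.71 at 12 h and 6.44 at 6 h, a smaller difference than in its tags. The median log2 ratio of this fold was -0.69 over the 8 promoters and 0.19 over all pairs.

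The glycolytic peaks were also less sharply shaped at 12 h. The focus ratio is the fraction of a peak's tags that lie on the side of its centre expected for their strand, so a peak made by 1 compact site scores high. It was lower at 12 h at 7 of 8 glycolytic promoters, while it was lower at 27.8% and higher at 71.2% of all pairs. At TDH3 the focus ratio was 0.644 at 12 h and 0.766 at 6 h. At FBA1 it was 0.680 at 12 h and 0.791 at 6 h, and at ENO2 0.731 at 12 h and 0.819 at 6 h. CDC19 was the exception, with 0.841 at 12 h and 0.823 at 6 h. Over the 272 nuclear pairs the change in focus ratio went with the change in tags (Spearman coefficient 0.45, n = 272 pairs), a description across peaks that share the same libraries. The relation was weaker over all 299 pairs (0.20) and within classes, at 0.35 among tRNA genes, 0.30 among other nuclear sites, 0.27 in the mitochondrial genome and 0.09 at chromosome ends.

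The position of the glycolytic peaks moved little, by a median of 10.5 bp. FBA1 had the same centre at both times, 433 bp upstream of the start codon. The TDH3 centre lay 427 bp upstream at 12 h and 463 bp upstream at 6 h, the largest displacement of the 8. The CDC19 window was chrI:71061-71229 at 12 h and chrI:71072-71254 at 6 h, and that of FBA1 chrXI:327836-328004 at 12 h and chrXI:327829-328011 at 6 h.

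ENO2 had a second peak inside the gene, and it went the other way. That peak, also in the promoter range of YHR173C, at chrVIII:451472-451640 at 12 h and chrVIII:451499-451681 at 6 h, had 346 tags at 12 h against 175 at 6 h (ratio 1.98, 1.70 to 2.31). At the ENO2 promoter the same ratio was 0.406. The margin of the promoter over the peak inside the gene was smaller at 12 h than at 6 h. The yeast genome holds a second, closely related enolase gene, ENO1, and no source used here states how reads matching both were placed.

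**Figure D2:**
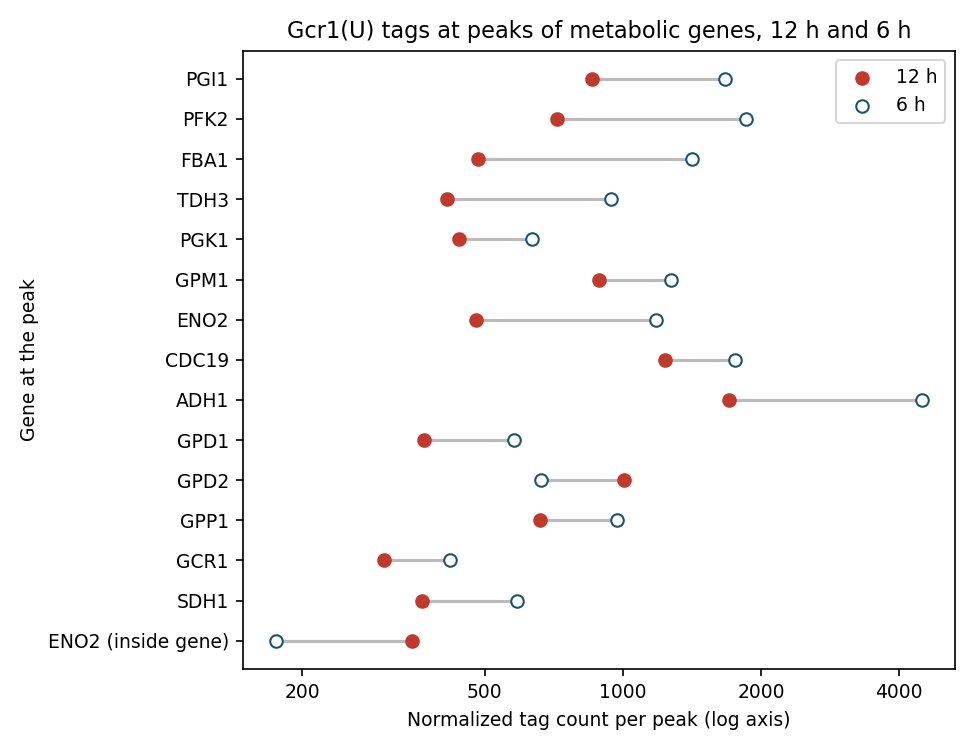
Normalized tag counts (log axis) are shown for 15 Gcr1(U) peaks at metabolic genes, with filled points for 12 h and open points for 6 h joined by a line. At 13 of these peaks the 12 h point lies to the left, and at GPD2 and inside ENO2 it lies to the right. The 15 were picked from the named peaks, so this split is not a share of metabolic genes. Among those left out are CIT1, ATP1, CYR1 and PGM1, whose peaks lie at tRNA genes and were higher at 12 h, and SNF1, which was lower.

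The other genes of central carbon metabolism with a Gcr1(U) peak did not all follow glycolysis. ADH1, the alcohol dehydrogenase that makes ethanol, had 1706 tags at 12 h against 4497 at 6 h (ratio 0.379, 0.362 to 0.397). It was the lowest ratio of the 104 other nuclear pairs, yet ADH1 still stood at rank 3 at 12 h against rank 2 at 6 h. The ADH1 fold over local background differed less than the tags, with 6.55 at 12 h and 8.18 at 6 h. Its focus ratio was higher at 12 h, at 0.850 against 0.793 at 6 h, unlike at most glycolytic promoters. ADH1 was the only one of the 4 members of the ethanol fermentation list with a peak.

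The genes of glycerol synthesis differed among themselves. GPD1 and GPD2 encode the 2 isoforms of glycerol-3-phosphate dehydrogenase, and GPP1 a glycerol phosphatase. GPD1 had 370 tags at 12 h against 578 at 6 h (ratio 0.639, 0.573 to 0.713), and GPP1 had 659 tags at 12 h against 971 at 6 h (ratio 0.679, 0.625 to 0.738). The GPP1 peak, centred 728 bp upstream of the gene at 12 h, was also in the promoter range of YIL054W and YIL055C, which lie nearer. GPD2 had 1006 tags at 12 h against 662 at 6 h (ratio 1.52, 1.40 to 1.65). The GPD2 peak, centred 657 bp upstream of the gene at 12 h and also in the promoter range of MAM3, stood at rank 7 at 12 h and 26 at 6 h. Its fold over local background was 5.64 at 12 h and 3.86 at 6 h, and its focus ratio was 0.815 at 12 h and 0.741 at 6 h. GPP2 had no listed peak.

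GCR1 itself had a peak centred 167 bp upstream of its start codon at 12 h and 181 bp upstream at 6 h. That peak had 302 tags at 12 h against 420.3 at 6 h (ratio 0.718, 0.634 to 0.813) and stood at rank 147 at 12 h against 48 at 6 h. SDH1, a subunit of succinate dehydrogenase in the TCA cycle, had 365 tags at 12 h against 587 at 6 h (ratio 0.623, 0.558 to 0.695). Its fold over local background was 2.12 at 12 h and 2.14 at 6 h, so at SDH1 the local enrichment was nearly level while the tags were lower. At SNF1, the kinase that acts when glucose is scarce, the peak was centred inside the gene. It had 288 tags at 12 h against 316 at 6 h (ratio 0.912, 0.797 to 1.04). The peak of GCN4, the activator of amino acid synthesis genes, had a ratio of 0.903 (0.803 to 1.02). That peak was centred inside YEL008W, 904 bp upstream of GCN4 at 12 h. Neither interval excludes 1.

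Several metabolic genes had a peak that lies at a neighbouring tRNA gene. Those peaks were all higher at 12 h, but so were 94 of all 98 tRNA peaks, so this is not particular to the metabolic genes. CIT1, citrate synthase, had 431.0 tags at 12 h against 323 at 6 h (ratio 1.34, 1.18 to 1.51). ATP1, a subunit of the mitochondrial ATP synthase, had a ratio of 1.24 (1.10 to 1.39), and CYR1, adenylate cyclase, one of 1.40 (1.24 to 1.58). ASN2, asparagine synthetase, had a ratio of 1.41 (1.26 to 1.59). PGM1, phosphoglucomutase, had a ratio of 1.25 (1.10 to 1.42) and MET17, a methionine synthesis gene, one of 1.31 (1.13 to 1.53). These peaks are tRNA peaks by class and are counted among the tRNA peaks described next.

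tRNA genes are transcribed by RNA polymerase III from promoter elements inside the gene. Gcr1(U) had 98 peaks there, at 98 of the 275 nuclear tRNA genes, and each overlapped the tRNA gene. Of these peaks 94 had more tags at 12 h, 82 with a counting interval above 1 and 0 with an interval below 1. The median was 405 tags at 12 h against 324 at 6 h, a log2 ratio of 0.33 at the median with quartiles of 0.24 and 0.42. The class was even at both times, with 278 to 590.1 tags at 12 h and 212 to 499.5 at 6 h. The fold over local background was higher at 95 of 98 tRNA peaks, against 75.6% of all pairs, with a median of 2.77 at 12 h and 2.24 at 6 h. The lowest fold in the class at 6 h, 2.00, is the lowest in the list, so the 6 h values lie close to the lower edge of what is listed.

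The widest margins at tRNA genes were near HIT1 and VMA3 and at a tRNA gene on chromosome IV. The peak at HSX1, an arginine tRNA gene upstream of HIT1, had 521 tags at 12 h against 315 at 6 h (ratio 1.66, 1.47 to 1.86). The peak at IMT4, an initiator methionine tRNA gene upstream of VMA3, had 488.5 tags at 12 h against 311 at 6 h (ratio 1.57, 1.40 to 1.77). The peak at YNCD0005C, at chrIV:434211-434379 at 12 h and chrIV:434184-434366 at 6 h, had 452 tags at 12 h against 267 at 6 h (ratio 1.7, 1.5 to 1.93). It gained more places than any other pair, standing at rank 48 at 12 h and 160 at 6 h. The 4 tRNA peaks with fewer tags at 12 h were those at SUF3, YNCH0001W, YNCH0015W and YNCJ0008W, all with intervals that span 1. Of the tRNA peaks, 10 were among the 30 highest peaks at 12 h and 0 at 6 h. The highest at 12 h, at YNCP0009W near HAA1, had 590.1 tags at 12 h against 411 at 6 h.

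The tRNA peaks were displaced along the gene. Measured from the first base of the tRNA gene along its own strand, the peak centre lay at a median of 36 bp at 12 h (quartiles 22.2 and 46) and 51 bp at 6 h (quartiles 37.2 and 69), in genes with a median length of 73 bp. The centre lay past the last base of the gene at 3 peaks at 12 h and at 13 at 6 h, and inside the gene at 90 peaks at 12 h and 79 at 6 h. At 70 of the 98 tRNA peaks (71.4%) the 12 h centre was nearer the 5′ side than the 6 h centre, by a median of 12.5 bp over the 98. The direction followed the gene and not the chromosome, with 30 of 43 genes on the plus strand and 40 of 55 on the minus strand displaced to their own 5′ side. At the 63 nuclear peaks that lie upstream of a single protein-coding gene and have no tRNA gene, the centre moved to the upstream side at 32 (50.8%), with a median of 1.0 bp. The usual window was 14 bp shorter at 12 h, and its part in the displacement was not tested.

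**Figure D3:**
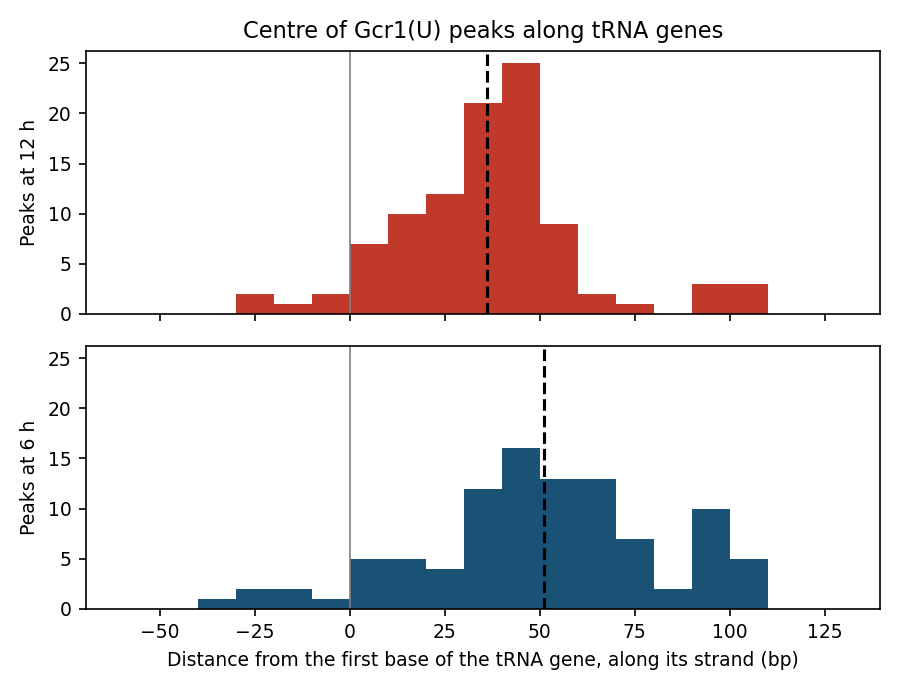
Histograms in 10 bp bins show the distance of the Gcr1(U) peak centre from the first base of the tRNA gene, along its strand, for 98 peaks at 12 h (top) and at 6 h (bottom), with the median dashed. The median is 36 bp at 12 h and 51 bp at 6 h, and the group past the end of the gene is smaller at 12 h, at 3 peaks against 13.

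The focus ratio was higher at 12 h at 86 of 98 tRNA peaks (87.8%), against 71.2% of all pairs. Its median at tRNA peaks was 0.682 at 12 h and 0.646 at 6 h. The median difference was 0.033 at tRNA peaks and 0.021 over all pairs, so a rise was not particular to them. Of other polymerase III genes, 2 of the 10 listed had a Gcr1(U) peak. RPR1, the RNA of RNase P, had 585 tags at 12 h against 482 at 6 h (ratio 1.21, 1.10 to 1.34). SCR1, which encodes the signal recognition particle RNA, had 876 tags at 12 h against 943 at 6 h (ratio 0.929, 0.860 to 1.00). The SCR1 window was chrV:442045-442213 at 12 h and chrV:441913-442095 at 6 h, with centres 125 bp apart. Its focus ratio was 0.566 at 12 h and 0.696 at 6 h, the largest fall of any pair.

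**Figure D4:**
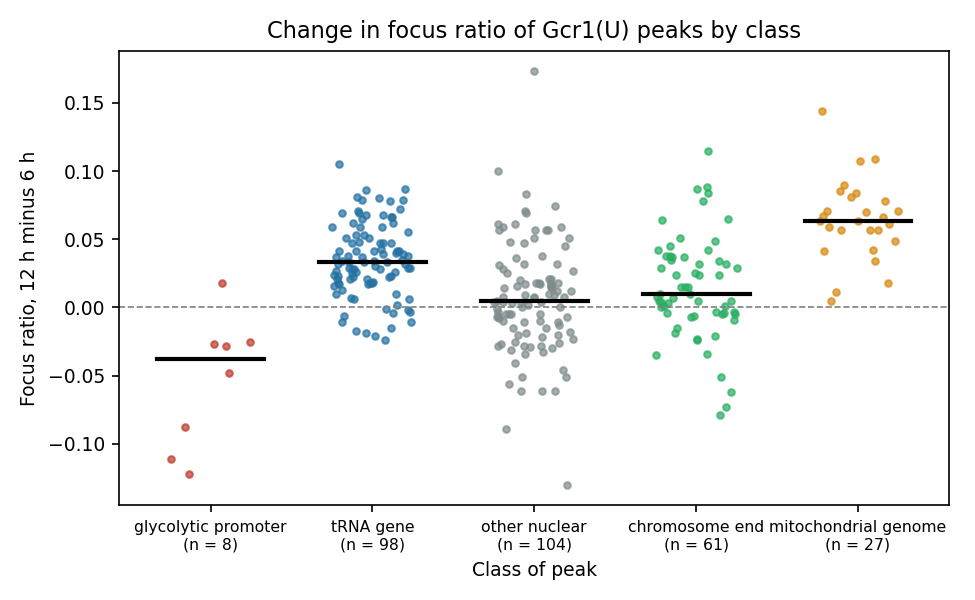
The difference in focus ratio (12 h minus 6 h) is plotted for every Gcr1(U) pair by class of site, with a black bar at the class median. It was below 0 at 7 of 8 glycolytic promoters, against 27.8% of all pairs. It was above 0 at 86 of 98 tRNA genes and at all 27 mitochondrial sites, against 71.2% of all pairs. The single rDNA pair is left out.

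The mitochondrial genome held 27 pairs, all with fewer tags at 12 h and 26 with an interval below 1. Gcr1 is a nuclear factor, and no untagged library was analysed here to show what such sites read without it. The class had a median of 199.6 tags at 12 h and 494 at 6 h, a log2 ratio of -1.26 (quartiles -1.67 and -1.04). The lowest ratios of the whole list were inside COB, the cytochrome b gene, where 1 peak had 72.3 tags at 12 h against 360.0 at 6 h (ratio 0.201, 0.160 to 0.247) and another 109 at 12 h and 492 at 6 h (ratio 0.221, 0.184 to 0.263). The highest mitochondrial peak, inside COX1, had 616 tags at 12 h against 1812 at 6 h (ratio 0.340, 0.315 to 0.367). The 2 peaks inside the 21S ribosomal RNA gene had ratios of 0.421 and 0.422.

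In these sites the local enrichment moved against the tags. The fold over local background was higher at 12 h at 26 of the 27 mitochondrial pairs, with a median of 5.63 at 12 h and 3.90 at 6 h. The local level implied by tags divided by that fold was lower at 12 h at all 27, with a median log2 ratio of -1.89, against -0.08 over all pairs and 0.04 at tRNA genes. At the glycolytic promoters the implied local level had a median log2 ratio of -0.26, so that there tags and local enrichment were both lower. The focus ratio was higher at 12 h at all 27 mitochondrial pairs, against 71.2% of all pairs, with a median of 0.829 at 12 h and 0.758 at 6 h. Tags over a circular multi-copy genome also follow the number of its copies in the sample, which was not measured here.

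**Figure D5:**
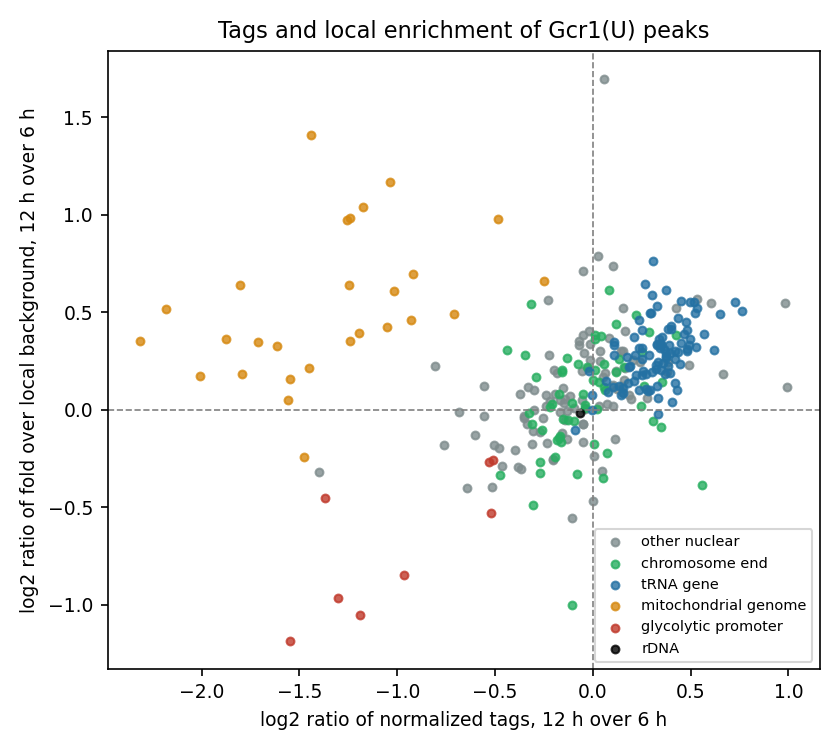
Each point is a Gcr1(U) pair, with the log2 ratio of normalized tags on the horizontal axis and that of the fold over local background on the vertical axis, both 12 h over 6 h, coloured by class of site. The glycolytic promoters lie below 0 on both axes and tRNA genes mostly above 0 on both, while 26 of 27 mitochondrial sites have fewer tags with a higher local fold.

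The 104 other nuclear pairs include the strongest peaks of the list. The highest, at chrIX:242117-242285 at 12 h, was centred inside EFM4, 174 bp past its start codon. It was also in the promoter range of FIS1, which is transcribed away from EFM4. It had 4158 tags at 12 h against 6110 at 6 h (ratio 0.681, 0.659 to 0.703). The peak centred 874 bp upstream of CIS1 had 1755 tags at 12 h against 2051 at 6 h (ratio 0.856, 0.811 to 0.902). The site inside RAD34, a gene of DNA repair, had 1461 at 12 h and 1801 at 6 h (ratio 0.811, 0.766 to 0.860). All of these had the same centre at both times and focus ratios within 0.01 of each other. Their fold over local background was higher at 12 h, with 8.68 at 12 h and 7.98 at 6 h at EFM4. The site at YGL081W had 1249 tags at 12 h against 1197 at 6 h (ratio 1.04, 0.976 to 1.11) and stood at rank 5 at 12 h against 11 at 6 h.

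Peaks inside the genes of cytosolic Hsp70 chaperones, which fold newly made and heat-damaged proteins, differed from gene to gene. SSA1 had 2 peaks inside the gene, with 104 tags at 12 h against 181 at 6 h at one (ratio 0.572, 0.465 to 0.702) and 179.9 at 12 h and 305.0 at 6 h at the other (ratio 0.590, 0.504 to 0.689). SSB1, an Hsp70 that sits on the ribosome, also had 2, with 169 tags at 12 h against 107 at 6 h (ratio 1.58, 1.29 to 1.94) and 203 at 12 h and 140.5 at 6 h (ratio 1.45, 1.21 to 1.73). SSB2 had a ratio of 1.31 (1.05 to 1.61), and the 3 peaks inside SSA2 had ratios from 1.09 to 1.15 with intervals that span 1. SSA1 and SSA2 are near-identical in sequence, as are SSB1 and SSB2, and tags could be split between copies, so these values are uncertain. Over the heat shock list 6 of 8 peaks were higher at 12 h, against 53.5% of all pairs, and these 8 peaks lie in 4 genes. At the SSA1 peak with a ratio of 0.572 the fold over local background was not lower, at 3.33 at 12 h and 2.85 at 6 h.

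Of 132 genes for cytosolic ribosomal proteins 7 had a Gcr1(U) peak in the promoter range and 1 a peak inside the gene. Over all 6002 nuclear protein-coding genes, 207 had a peak in the promoter range, so few genes of either set had 1. The peak inside RPL8A had 371 tags at 12 h against 186 at 6 h (ratio 1.99, 1.72 to 2.31), the highest ratio of all 299 pairs, and stood at rank 104 at 12 h against 194 at 6 h. Its fold over local background differed less, with 2.71 at 12 h and 2.50 at 6 h. RPL8A has a near-identical copy, RPL8B. RPL42B had 305 tags at 12 h against 436 at 6 h (ratio 0.70, 0.620 to 0.793), and RPL2A had a ratio of 0.869 (0.771 to 0.978). RPL26A, whose peak is at a tRNA gene, had a ratio of 1.22 (1.10 to 1.36). At RPL1B, RPL11A, RPS19B and RPS24A the ratios lay between 0.907 and 1.04 with intervals that span 1.

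The hexose transporter list had 6 peaks, at HXT9, HXT11, HXT13 and HXT17, with 72.3 to 143 tags at 12 h and 69.6 to 150.2 at 6 h. All 6 intervals span 1. At the peak inside HXT11 the fold over local background was 504 at 12 h and 155.5 at 6 h, although its tags were nearly level. These genes lie near chromosome ends and share sequence with other family members, so the placement of their tags is uncertain. The list of ethanol use and gluconeogenesis, which yeast turns to after glucose, had 1 peak among its 17 genes, inside ALD3, with 165 tags at 12 h against 162 at 6 h (ratio 1.02, 0.849 to 1.23).

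The 61 peaks within 10 kb of a chromosome end were nearly level between the times, with 27 higher and 34 lower at 12 h. Their median log2 ratio was -0.04, and the quartiles were -0.18 and 0.07. None of the 61 passed 1.5-fold in either direction, and 6 had a counting interval above 1 and 6 one below 1. The highest, at chrVIII:562421-562589 at 12 h and chrVIII:562417-562599 at 6 h, had 906 tags at 12 h against 708 at 6 h (ratio 1.28, 1.18 to 1.39). Another, upstream of YNR077C on chromosome XIV, had 747 tags at 12 h against 556 at 6 h (ratio 1.34, 1.23 to 1.47). The order of the tag counts was kept here, with a Spearman coefficient of 0.95 (n = 61), close to 0.95 among other nuclear pairs (n = 104). It was 0.87 in the mitochondrial genome (n = 27), 0.69 among tRNA peaks (n = 98) and 0.84 over all pairs. Tags at 12 h spanned 278 to 590.1 among tRNA peaks and 69.8 to 4158 among other nuclear pairs. The coefficients of these classes are therefore not directly comparable. Chromosome ends consist of repeated families, and tags there could belong to more than 1 copy. The single rDNA peak, at YLR162W, had 178 tags at 12 h against 186.5 at 6 h, and its window moved by 163 bp.

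Over all pairs the centre of a peak moved by a median of 14 bp (quartiles 5 and 27), and by over 50 bp at 33 of 299 pairs (11.0%). These comprised 14 tRNA peaks, 7 other nuclear peaks, 7 at chromosome ends, 4 in the mitochondrial genome and the rDNA peak. The largest displacement, 170 bp inside YNL018C, left 6 bp of overlap between the windows. Sharper peaks at 6 h moved less (Spearman coefficient -0.34 between focus ratio and displacement, n = 299), and the level of tags bore little relation to it (0.07).

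The spliced form was listed at both times at 162 of these sites. The median log2 ratio (12 h over 6 h) at the 8 glycolytic promoters was -1.08 for Gcr1(U), while it was 0.96 for Gcr1(S). At the 81 shared tRNA genes it was 0.33 for Gcr1(U), while it was -1.05 for Gcr1(S). At the 25 shared mitochondrial sites it was -1.44 for Gcr1(U), while it was 0.35 for Gcr1(S). At the 33 shared other nuclear sites it was -0.23 for Gcr1(U), while it was 0.36 for Gcr1(S). The 15 shared chromosome-end sites differed little, at 0.01 for Gcr1(U) and -0.10 for Gcr1(S). Over all 162 sites it was 0.12 for Gcr1(U) and -0.71 for Gcr1(S). The forms came from separate libraries with 1 list each, and the difference between them was not tested. The usual window was 114 bp at 12 h and 170 bp at 6 h for Gcr1(S), against 168 bp and 182 bp for Gcr1(U). These ratios are not per bp, and the part of the window in the Gcr1(S) ratios was not tested. The genotype given above is that of the Gcr1(U) strain. That of the Gcr1(S) samples is not given here, so form cannot be told apart from strain.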

How the data were processed

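The data are peak lists from ChIP-seq of TAP-tagged Gcr1, 1 list for each form and time. Per the labels' protocols, chromatin was fixed with 1% formaldehyde for 25 min, recovered on IgG-sepharose, amplified over 15 PCR cycles and read from 1 end for 50 cycles. The submitters' processing notes name the build sacCer3 and, with no role or order, BWA 0.7.15, Picard 2.92, bedtools, HOMER, FastQC 0.10.1 and bcl2fastq 1.8.2. Per the file headers, peaks were called by findPeaks of HOMER. How replicates were pooled and lists matched is unstated in these sources. Both Gcr1(U) lists hold the same sites in the same order, so their overlap does not test whether sites were kept.

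The authors deposited a normalized tag count, a signal scaled to library size on a scale that the headers do not name. They also deposited a focus ratio, which is a fraction, a findPeaks score, a fold over local background (a ratio), a clonal fold change and a p-value against local background. The clonal fold change and p-value were not used. These are the authors' own values per peak. Steps in the tag counts, taken as 0.5 tags as in the score, gave the tags per unit. Of the values 99.7% at 12 h and 100% at 6 h lay within 0.05 units of a step, where chance would put 28.4% and 30.0%. Tag pairs so derived gave exact binomial 95% intervals, which rest on that step. Reads copied by PCR, with no molecular identifiers, need not be independent molecules.

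A peak was assigned to a gene when the 6 h centre fell within 1000 bp before to 200 bp after its start codon. Classes were, in order, mitochondrial genome, glycolytic promoter, tRNA gene (within 500 bp), rDNA, chromosome end (within 10 kb), and other nuclear. Genes came from the RefSeq table of assembly R64, strand from the systematic names, and chromosome ends from whichever annotated gene or peak came last. Sequences and motifs were not analysed, since no genome came with the files. Named peaks were those of 14 gene lists, the 10 with most tags, and the extremes in ratio, rank, focus ratio and displacement. Ribosomal protein genes were taken by symbol and the direction of tRNA displacement was examined after values were seen. Members and lists were chosen with earlier results of these data known. Python 3.11.15, pandas 2.3.3 and SciPy 1.17.1 were used, and the interval code was tested on simulated data.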

Additional observations from a re-analysis of the deposited data

Results flagged for a closer look

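At every site that both forms share among the glycolytic promoters (8) and in the mitochondrial genome (25), tags were lower at 12 h in Gcr1(U) and higher at 12 h in Gcr1(S). The log2 ratio (12 h over 6 h) of Gcr1(U) minus that of Gcr1(S) had a median of -2.08 at the glycolytic promoters and -1.83 in the mitochondrial genome. Opposite directions were not particular to these classes. At shared tRNA genes tags were higher at 12 h at 77 of 81 in Gcr1(U) and at 0 of 81 in Gcr1(S). At other nuclear sites they were higher at 6 of 33 in Gcr1(U) and 21 of 33 in Gcr1(S). At shared chromosome ends they were higher at 8 of 15 in Gcr1(U) and 3 of 15 in Gcr1(S), with class medians of 0.01 and -0.10. The difference between the forms was not tested, since each has 1 list per time. Nor was the part of the usual Gcr1(S) window, which was 114 bp at 12 h and 170 bp at 6 h.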

How the results depend on the processing

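The median log2 ratios of the glycolytic promoters kept their direction under each of the 7 alternatives run, and those of the tRNA genes under each of the 8. Filters that kept every peak of a class could not alter its median. For glycolytic promoters these were an overlap of at least 50% of both peaks, the upper 50% by score and a mean of at least 100 tags. For tRNA genes they were a mean of at least 100 tags and overlap of the tRNA gene. The tRNA median, 0.33 as deposited, was 0.30 centred on all pairs, 0.39 centred on nuclear pairs outside glycolytic promoters and tRNA genes, 0.45 per bp and 0.30 with fold over local background. The mitochondrial median turned to 0.46 with fold over local background. The median of other nuclear pairs was 0.061 per bp, 0.075 with fold over local background and -0.20 in the upper 50% by score. With the second centring it was -0.00075, but that centring uses a set made up mostly of these same pairs and so puts it near 0. For chromosome ends the median was 0.078 per bp, 0.081 with fold over local background and 0.16 in the upper 50%. The median of all pairs was 0.15 per bp, 0.19 with fold over local background and 0.24 in the upper 50%, which held 133 pairs. Tags per bp thus raised every ratio through the shorter window at 12 h, and the cause of the other moves was not tested.

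Pairs at least 1.5-fold higher numbered 23 per bp, 20 with fold over local background, 4 in the upper 50% and 0 at 2-fold, and pairs at least 1.5-fold lower 5 with fold over local background, 16 in the upper 50% and 11 without mitochondrial peaks. The Spearman coefficient of tags between the times was 0.54 in the upper 50%, 0.78 above a mean of 100 tags and 0.92 without mitochondrial peaks. With fold over local background, among named peaks whose counting interval excludes 1, log2 ratios turned positive at 0.22 for 1 SSA1 peak, 0.12 at EFM4, 0.28 at CIS1, 0.10 at RAD34, 0.28 and 0.31 at chromosome ends VI and X, and in mitochondria at 0.048, 1.41, 1.04 and 0.36 inside COX1, 0.35, 0.51 and 0.17 inside COB, 0.64 in Q0255 and 0.49 and 0.98 between genes, and turned negative at -0.38 at the end of IX. Assignment within 500 bp upstream named 125 genes, against 207 within 1000 bp. Among those no longer named were CDC19 and PFK2, counted here as glycolytic promoters, and ADH1, GPD2, GPP1 and GCN4. The class medians were not rerun with the 500 bp limit. The share of tRNA peaks displaced to the 5′ side, 71.4%, was 70.2% to 78.6% over displacements of at most 50 bp or over 10 bp and 69.0% at tRNA genes without an assigned protein-coding gene, alternatives chosen after seeing the data.

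No paired analysis was possible because each list pools its replicates, and for the same reason leaving out a replicate was not run. Depth, about 1.42 to 1.5 tags a unit, limits ratios of the lowest peaks most.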
